A study of Mus musculus with 4 samples.

Results

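The 10 genes described here act in the G1 phase of the cell cycle and were measured in cultures of a mouse fibroblast line with and without tetracycline, whose withdrawal is labelled as inducing the kinase PKR. They comprise the growth arrest gene Gas1, the pocket protein family Rb1, Rbl1 and Rbl2, the D-type cyclin genes Ccnd1, Ccnd2 and Ccnd3, the cyclin-dependent kinase gene Cdk4, and the kinase inhibitor genes Cdkn1a and Cdkn1b. The members are all probe sets whose single annotated gene symbol is one of these names, which gave 14 of 13057 probe sets and 10 of 6137 named genes. A further 2 probe sets carry several symbols, of which 1 is a member gene, and were left out by that rule.

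NIH3T3 cells are immortalised fibroblasts from mouse embryos. The stable line used here expresses a wild-type PKR transgene from a promoter that tetracycline shuts off. The withdrawn cultures had been without tetracycline for 5 h, which the labels give as the induction of PKR. Their serum content is not given in the sources used here. The tetracycline cultures grew in DMEM with 5% fetal calf serum and 1 µg/ml tetracycline. All 4 samples share the line and the transgene, and whether the line is 1 clone is not given in the sources used here. Each condition was measured in total RNA on 1 array of each of 2 types. One type, called MB here after the letters in its sample titles, carries other probe sets than the first type. No value therefore has a replicate, no p-value was computed, and the number of arrays limits the precision.

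G1 is the stretch of the cycle in which a cell reads growth signals such as serum and either commits to DNA replication or stops. Mitogens raise the D-type cyclins, which activate CDK4 and CDK6, and these kinases phosphorylate the pocket proteins RB, p107 and p130. Unphosphorylated pocket proteins bind E2F transcription factors and hold E2F target genes silent, and phosphorylation releases them. In fibroblasts GAS1, a membrane-anchored protein, is made in serum-starved, resting cells and its transcript declines after serum is added.

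Of the 14 member probe sets, 11 exceeded a floor on both arrays of their type and are called measured. This floor is the 25th percentile of all intensities of the type, at 129.7 for the first type and 80.0 for the MB type. A stricter control floor, at the 95th percentile of bacterial and yeast control probe sets, lay at 281.5 and 340.4. At that floor 9 of the 14 were measured. The 2% trimmed mean intensity lay between 997 and 1000.4 on the 4 arrays. As a check of RNA quality, 3' over 5' control ratios ranged over 0.93 to 1.05 (beta-actin) and 0.71 to 0.83 (Gapdh). The single probe set of Eif2ak2, which encodes PKR, read 663.6 in withdrawn cells and 643.3 with tetracycline. Since the species of the transgene is not stated, this value does not check the induction.

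All changes are log2 ratios of the withdrawn over the tetracycline intensity. Of the 11 measured probe sets, those of Gas1, Rbl1 and Rbl2 were lower in withdrawn cells by at least 2-fold, and none was higher by 2-fold. On the first type 2 of 8 measured member probe sets, Rbl1 and Rbl2, were lower and 0 higher by 2-fold. Of all measured probe sets of this type 4.02% were lower by 2-fold and 4.36% higher. On the MB type 1 of 3, Gas1, was lower and 0 higher, where 6.65% of all measured probe sets were lower and 8.46% higher. At the control floor the first type held 6 measured member probe sets and none past 2-fold, against 1.29% lower and 1.88% higher of all. At that floor the MB type kept Gas1 as the 1 lower of 3, against 0.767% lower and 1.97% higher of all. The median change of the 11 was -0.14, with 8 lower and 3 higher to any extent. Over all measured probe sets the median was -0.012 for the first type and 0.025 for the MB type. Counts this small describe these arrays only.

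**Figure D1:**
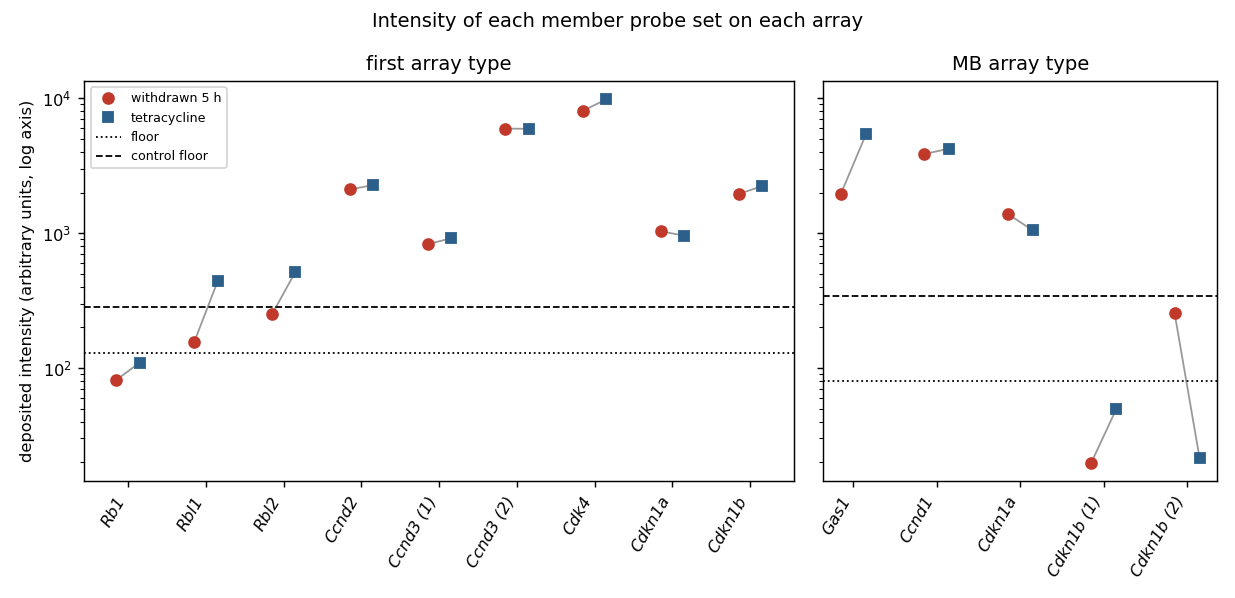
Deposited intensity (log axis) of each of the 14 member probe sets on the withdrawn array (circle) and the tetracycline array (square), with array types in separate panels. Dotted and dashed lines mark the floor and the control floor. Gas1 read 1964 in withdrawn cells against 5407.3 with tetracycline, well above both lines, while Rbl1 and Rbl2 lay below the control floor in withdrawn cells.

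The 3 genes past 2-fold have promoter windows in RefSeq, and these are shown because pocket protein genes can themselves be E2F targets. The sequences are the 250 bases before the annotated start, from the RefSeq table on GRCm38.p6, read 5′ to 3′ on the gene's strand. Capitals mark matches to an E2F motif, a CCAAT box or a GC box.
Gas1, chr13:60177536-60177785, minus strand: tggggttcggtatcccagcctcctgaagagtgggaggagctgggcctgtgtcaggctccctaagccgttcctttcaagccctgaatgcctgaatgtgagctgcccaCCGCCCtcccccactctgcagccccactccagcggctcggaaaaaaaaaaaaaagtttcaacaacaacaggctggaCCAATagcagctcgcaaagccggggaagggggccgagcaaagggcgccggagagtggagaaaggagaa
Rbl1, chr2:157204535-157204784, minus strand: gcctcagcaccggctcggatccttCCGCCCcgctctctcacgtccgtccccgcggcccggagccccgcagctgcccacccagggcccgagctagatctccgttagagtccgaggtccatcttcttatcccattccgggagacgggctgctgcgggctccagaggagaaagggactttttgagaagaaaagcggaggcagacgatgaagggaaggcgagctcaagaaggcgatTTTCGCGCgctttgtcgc
Rbl2, chr8:91069807-91070056, plus strand: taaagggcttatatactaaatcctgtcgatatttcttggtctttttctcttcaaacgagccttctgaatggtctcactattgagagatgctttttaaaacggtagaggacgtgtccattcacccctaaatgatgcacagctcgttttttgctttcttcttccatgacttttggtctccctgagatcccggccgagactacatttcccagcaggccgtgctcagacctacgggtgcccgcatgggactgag

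The E2F motif was searched as TTTCCCGC, TTTCGCGC, TTTGCCGC or TTTGGCGC, the GC box as GGGCGG and the CCAAT box as CCAAT, all on both strands. In Rbl1 the match TTTCGCGC spans bases 18 to 11 before the start, and overlaps no match to the other motifs. An E2F match occurs in 1.86% of the 32851 promoter windows in the table. Of the 7 member genes with a window, Rbl1 alone has one. Gas1 has a CCAAT box 68 to 64 bases and a GC box on the opposite strand 144 to 139 bases before its start. CCAAT boxes occur in 33.8% of all windows and GC boxes in 32.7%. Rbl2 has none of these matches. The CArG box, the site of serum response factor, and the AP-1 motif TGANTCA matched in 0 of the 9 member windows, against 1.47% and 6.75% of all windows. A match is only a run of letters, and the absence of one covers these 250 bases alone.

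Gas1 (Entrez gene 14451, chromosome 13) was read by 1 probe set, on the MB type. It had an intensity of 1964 in withdrawn cells and 5407.3 in tetracycline cells, both far above the control floor. The log2 change was -1.46, which is 2.75-fold lower in withdrawn cells. For scale, the 200 probe sets closest to Gas1 in level had changes with a robust SD of 0.33, which is called the spread here. Real differences as well as noise enter the spread, so it does not stand in for a replicate error. The change of Gas1 was 4.46 times its spread, the highest such ratio among the 11 measured member probe sets. Among the 2738 probe sets of the MB type above the control floor, 2 had a lower change. Among all 4360 measured probe sets of that type the share with a lower change was 3.21%. Over other scalings of the arrays the change of Gas1 stayed between -1.49 and -1.43.

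Rbl1 and Rbl2 encode the pocket proteins p107 and p130, which act mainly with the repressor E2Fs. The Rbl1 probe set read 155.9 in withdrawn cells and 438.3 with tetracycline, a log2 change of -1.49. Its withdrawn value lay between the floor and the control floor, so against the control floor the difference is only at least 1.56-fold lower. The Rbl2 probe set read 249.8 in withdrawn cells and 515.5 with tetracycline, a change of -1.05. Its bound against the control floor is at least 1.83-fold lower. Both genes were thus lower in withdrawn cells on the arrays at hand, but at a level where probe sets scatter widely. The spread was 0.92 for Rbl1 and 0.82 for Rbl2, so their changes were 1.62 and 1.28 times the spread. On the first type 0.863% of measured probe sets had a lower change than Rbl1, and 3.66% a lower one than Rbl2. Rb1, which encodes RB itself, read 81.7 in withdrawn cells and 109.7 with tetracycline. Both values were below the floor, so no fold is given, and nothing is shown about RB transcript levels.

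**Figure D2:**
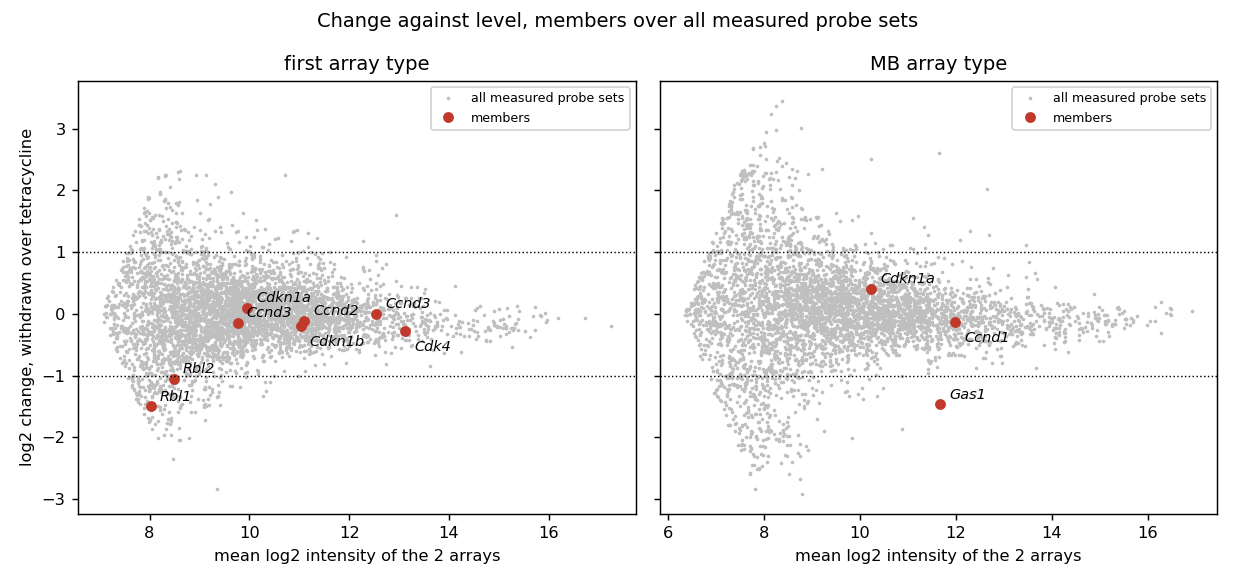
Log2 change of withdrawn over tetracycline against the mean log2 intensity of both arrays, for every measured probe set (grey) and for the 11 measured members (red, named), by array type. Dotted lines mark 2-fold. Gas1 at -1.46 lies apart from probe sets of its level, while Rbl1 at -1.49 and Rbl2 at -1.05 lie where the grey cloud is wide.

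The D-type cyclins, the regulatory subunits of CDK4 and CDK6, differed little. Ccnd1, the cyclin most responsive to mitogens in fibroblasts, read 3865.6 in withdrawn cells and 4234.8 with tetracycline, a change of -0.13. Ccnd2 read 2109.7 in withdrawn cells and 2272 with tetracycline, a change of -0.11. Ccnd3 had a pair of probe sets on the first type. The dimmer one read 828.3 in withdrawn cells and 914.3 with tetracycline (-0.14), and the brighter one 5967.9 in withdrawn cells and 5937.4 with tetracycline (0.0074). All 4 cyclin probe sets lay above the control floor on both arrays. Each change was smaller than its spread, which ranged from 0.28 to 0.40. Without replicates this does not show that their transcripts were equal in both conditions. Probe sets of Ccnd1 and Cdkn1a and the dimmer one of Ccnd3 carry the name ending that marks probes shared by a sequence family, so related transcripts may add to their signal.

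Cdk4, the catalytic partner of the D-type cyclins, read 8094.9 in withdrawn cells and 9847.1 with tetracycline. Its change of -0.28 equalled its spread of 0.28, and 26.5% of probe sets on the first type had a lower change.

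The inhibitor genes did not share a direction. Cdkn1a encodes p21, a p53 target that blocks cyclin-CDK complexes and also helps assemble cyclin D with CDK4. On the MB type it read 1390 in withdrawn cells and 1048 with tetracycline, a change of 0.41 beside a spread of 0.39. On the first type it read 1030.8 in withdrawn cells and 959.4 with tetracycline, a change of 0.10 beside a spread of 0.42. Both Cdkn1a probe sets were thus slightly higher in withdrawn cells, and neither by much more than the spread. Cdkn1b encodes p27, the inhibitor that accumulates in resting cells. Its probe set on the first type read 1950.5 in withdrawn cells and 2229.1 with tetracycline, a change of -0.19 beside a spread of 0.36. Its 2 probe sets on the MB type disagreed. One read 19.7 in withdrawn cells and 49.3 with tetracycline, both below the floor. The other read 257.3 in withdrawn cells, above the floor, and 21.6 with tetracycline, below it. Against the floor it was at least 3.22-fold higher in withdrawn cells, but both its values lay below the control floor. No fold is given for the one below the floor on both arrays.

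**Figure D3:**
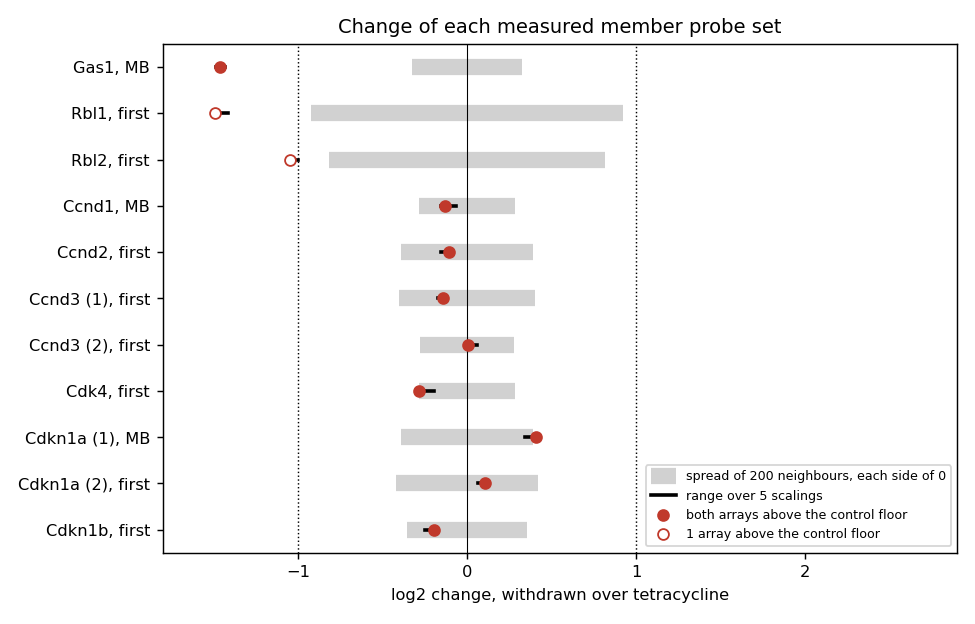
Log2 change of withdrawn over tetracycline for the 11 measured member probe sets, named by gene and array type. Grey bars show the spread of the 200 probe sets nearest in level on each side of 0, black lines the range over the deposited values and 4 other scalings, and open circles probe sets below the control floor on 1 array. Only the 3 probe sets of Gas1, Rbl1 and Rbl2 lie past the dotted 2-fold line.

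The changes of Gas1, Rbl1 and Rbl2 exceeded their spread, and only that of Gas1 exceeded 2 times its spread. Those of Cdk4 and of the MB probe set of Cdkn1a lay at their spreads in the deposited values. Over the other scalings they reached -0.19 for Cdk4 and 0.34 for Cdkn1a, below their spreads. The direction of each of the 11 was kept under the 4 other scalings. Rbl2 stayed past 2-fold by the smallest margin of the 3.

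Lists of related genes were read for the same pathway, each gene taking the median change of its measured probe sets on both types. Over all 4507 measured genes 5.26% were higher by 2-fold and 4.22% lower, and the median was -0.0037. Partners of the G1 cyclins and kinases showed no member past 2-fold. Of 13 measured genes, 4 were higher and 9 lower to any extent, with a median of -0.11, or -0.25 at the control floor. The highest change was that of Cdk2, the kinase that follows CDK4 at the G1 to S border (0.70, with the tetracycline value below the control floor). The lowest was that of Skp1, a subunit of the SCF ubiquitin ligase (-0.79). Ccne1, which encodes cyclin E1 and was picked after its values were seen, read 1432.2 in withdrawn cells and 1545.1 with tetracycline. Of the other CDK inhibitors 3 genes were measured, from Cdkn2d, encoding p19 INK4d, at 0.31 to Cdkn3, a phosphatase that acts on CDK2, at -0.63. The withdrawn value of Cdkn3 lay below the control floor, and the 2 genes measured at that floor were both higher.

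E2F and DP factor genes, only some of which encode partners of the pocket proteins, had 5 measured genes and none past 2-fold. E2f8 was the highest (0.51) and E2f3, an activator, the lowest (-0.36). The pair of E2f1 probe sets, picked after their values were seen, disagreed at -0.70 and 0.15. Among 13 measured partners of the pocket protein complexes, Sin3a was the only one past 2-fold. SIN3A is a scaffold for histone deacetylases, and its probe set read 397.7 in withdrawn cells and 921.4 with tetracycline (-1.21), above the control floor on both arrays. The list median was 0.11, with 8 higher and 5 lower, and 0.060 with quantile normalization.

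E2F target genes, mostly replication genes that pocket proteins repress, were lower in 22 of 33 measured genes and higher in 11. Of all 4507 measured genes 50.4% were lower and 49.6% higher. Their median was -0.31. Only Cdc6, the replication licensing factor, passed 2-fold (-2.30), and its withdrawn value lay below the control floor. At the control floor 0 of 31 were past 2-fold in either direction, against 2.07% of all genes higher and 1.2% lower, and the median was again -0.31. Ccna2, Ccne1, E2f1, Mybl2 and Dnmt1 also stand in another list.

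**Figure D4:**
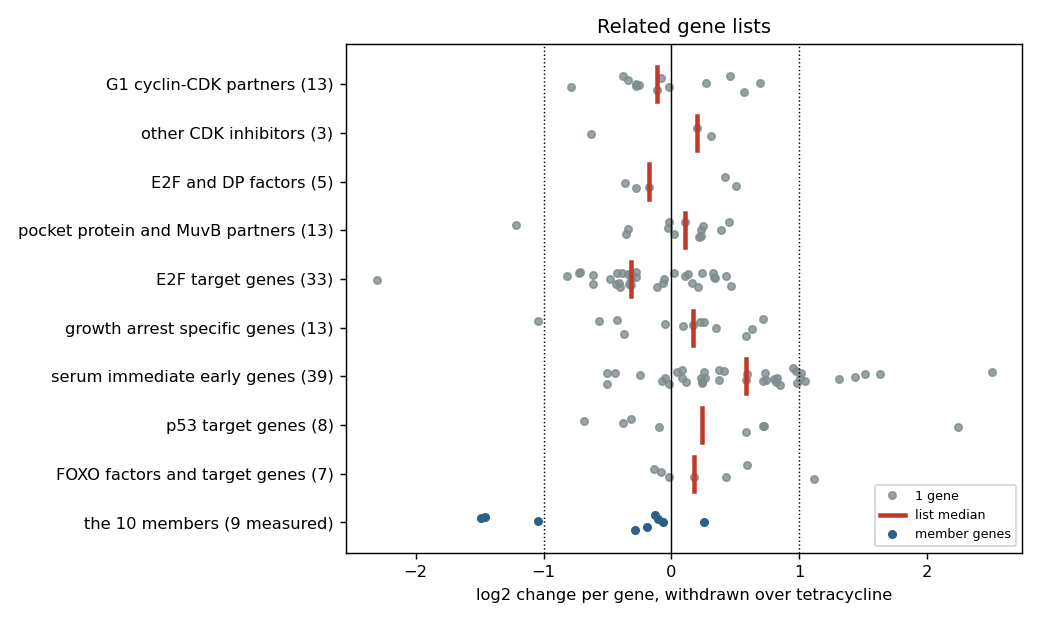
Log2 change of withdrawn over tetracycline per measured gene in each related list (grey, numbers of measured genes in parentheses) with the list median (red bar), and for the 9 measured member genes (blue, bottom row). The solid line is the median over all genes and dotted lines mark 2-fold. Serum immediate early genes have the highest median, at 0.58, and E2F target genes the lowest, at -0.31.

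Genes tied to serum or growth arrest were read from a pair of lists, which share the gene Btg2. Because the serum content of the withdrawn cultures is not given, the lists do not measure serum state. Serum immediate early genes, which are switched on within minutes when resting fibroblasts receive serum, had 39 measured genes. Of these 32 were higher in withdrawn cells, 8 of them by at least 2-fold, and 0 were lower by 2-fold. Over all measured genes 49.6% were higher to any extent, 5.26% higher by 2-fold and 4.22% lower by 2-fold. The list median was 0.58, and 0.32 on the MB type alone. The 4 largest changes were those of the transcription factor genes Klf10 (2.51), Klf2 (1.63, with the tetracycline value below the control floor), Junb (1.52) and Klf4 (1.44). Myc, which drives G1 entry and was picked after its values were seen, read 1705 in withdrawn cells and 1133.6 with tetracycline (0.59). Growth arrest specific genes, a list of genes named for growth arrest, antiproliferative genes and others such as Axl and Pdgfra, went both ways. Of 13 measured genes 8 were higher and 5 lower, with a median of 0.17, which turned to -0.072 on the first type alone. Tob1, an antiproliferative gene, was the only one past 2-fold (median -1.04), and neither of its probe sets passed the control floor on both arrays.

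The other genes named for growth arrest were picked after their values were seen and went in different directions. Gas2, a cytoskeletal protein gene, read 467.9 in withdrawn cells and 692.8 with tetracycline (-0.57). Gas5, a snoRNA host transcript, was higher on both its probe sets, with 13796.5 and 16093.8 in withdrawn cells against 9080.7 and 10164.2 with tetracycline. Gas6, the ligand of the receptor AXL, had a change of 0.092 and Pmp22, first isolated as Gas3, one of 0.22. Gas7 read 384.8 in withdrawn cells and 256.9 with tetracycline, with the tetracycline value below the control floor. Gas8 read 73.9 in withdrawn cells, below the floor, and 487.1 with tetracycline. Gas1 alone of these was lower by 2-fold with both values above the control floor. In withdrawn cells 32 of 39 immediate early genes were higher, against 49.6% of all measured genes, and Gas1 was lower. Of the growth arrest specific genes 8 of 13 were higher, and of the E2F target genes 22 of 33 were lower. The D-type cyclins moved by less than their spread. These lists were chosen with earlier results of these data known. The part of serum in these differences was not tested. Withdrawal of tetracycline, induction of PKR and any change of medium cannot be told apart in this design.

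Genes that share p53 or FOXO control with the inhibitors were read in the same way. Of 8 measured p53 target genes other than Cdkn1a, Gadd45a was the only one past 2-fold (2.25), with 4 higher, 4 lower and a median of 0.24. At the control floor 4 were higher and 2 lower, with a median of 0.65. Btg2 and Plk2 of this list also stand among the serum immediate early genes, and Ccng1 among the G1 partners. FOXO factors activate Cdkn1b and Rbl2 in resting cells, and of 7 measured FOXO genes and targets Bcl2l11 alone passed 2-fold (1.12). Its tetracycline value lay below the control floor, and the list median was 0.18. The median was 0.30 at 0.5 times the floor and 0.11 with quantile normalization. At the control floor it was also 0.30, from only 4 genes. Ccng2 of this list also stands among the G1 partners.

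Fibroblast markers were present, with all 14 genes on the arrays measured at the control floor, and 10 of them were lower in withdrawn cells (median -0.19). Their summed intensity was 56913 in withdrawn cells and 72180 with tetracycline on the first type. For the MB arrays it was 157313 in withdrawn cells and 192621 with tetracycline. Above the control floor on both arrays were 4 of 11 leukocyte, 1 of 6 epithelial, 0 of 5 endothelial and 4 of 7 markers of muscle, out of the marker genes of other cell types on the arrays. The part of these shifts in the member changes was not tested. In such bulk RNA, fewer cells that make a transcript and less of it per cell cannot be told apart.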

How the data were processed

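Expression was measured on 4 arrays of 2 types. Each deposited table gives a linear intensity for every probe set on its arrays and no detection call. How the authors obtained these intensities from the scans is not given in the sources used here. Intensities were used as deposited, without further scaling. The 61 control probe sets per type were left out. Gene names came from the platform annotation, updated through Entrez identifiers, and probe sets with several symbols were not named. With 1 array per condition and type no test was possible, and array types were never averaged per probe set. A change was counted at 2-fold between values above the floor. Alternatives were 4 scalings (by loess on level at span 0.4, by quantiles, by the median ratio, or to equal 2% trimmed means), a floor at 0.5 or 2 times the main one, the control floor, and 1.5-fold and 3-fold limits. Lists were also read from 1 array type at a time and from each gene's brightest probe set. Named are all member probe sets and, per list, up to 4 genes past 2-fold or otherwise the largest change in each direction. Members and lists were chosen with earlier results of these data known. The counting was tested on simulated data. Python 3.11.15 with numpy 2.4.6, pandas 2.3.3, statsmodels 0.14.6 and matplotlib 3.10.9 was used.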

Additional observations from a re-analysis of the deposited data

How the results depend on the processing

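With 1 array per condition and type, no replicate could be left out. A paired analysis was not possible for the same reason, and no test was made. All 11 measured member changes moved by less than their spread under every scaling and floor that kept them. The count of member probe sets lower by 2-fold was 3 in the main setting, with 4 scalings, at the lower floor and at 1.5-fold. It was 1 (Gas1) at the higher floor and at the control floor, since Rbl1 and Rbl2 no longer counted as measured, and 0 at 3-fold. The count of higher ones was 0 in every setting.

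Over all probe sets of the first type, 192 were higher and 177 lower in the main setting. These counts were 368 and 368 at the lower floor, 71 and 50 at the higher floor, 67 and 46 at the control floor, 545 and 471 at 1.5-fold, and 46 and 29 at 3-fold. On the MB type 369 were higher and 290 lower, with 619 and 534 at the lower floor, 165 and 108 at the higher floor, 54 and 21 at the control floor, 769 and 561 at 1.5-fold, and 136 and 122 at 3-fold. The floors and limits differ in how many probe sets they admit.

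The serum immediate early median was 0.48 with quantile normalization and 0.32 on the MB type alone. The median of the G1 partners was -0.25 at the higher floor, at the control floor and with the brightest probe set per gene. The p53 median was 0.58 at the higher floor and on the first type alone, and 0.65 at the control floor. On the first type alone the pocket protein partners had a median of 0.16, and the growth arrest list one of -0.072, below 0. The cause of these shifts was not tested. List medians with under 5 measured genes are not given here, except that of the FOXO list at the control floor, from 4 genes. Signal over background limits Rb1, Rbl1, Rbl2 and the Cdkn1b probe sets of the MB type.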
